A study of Homo sapiens with 6 samples.

Results

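The probes for 10 well-known long noncoding RNAs (lncRNAs) were followed across oral squamous cell carcinoma (OSCC) cells with and without DLEU1 knockdown. The genes were MALAT1, NEAT1, TUG1, GAS5, H19, MEG3, HOTAIR, SNHG1, SNHG5, and SNHG12, and a probe was included where the gene name given for it in the scanner files was one of these symbols. This gave 63 of the 50599 probes on the array, each with 1 spot. HSC-3, KON, and Ca9-22 are established OSCC cell lines. They were transfected either with siDLEU1-2, an siRNA (a short double-stranded RNA that lowers a matching transcript) against the lncRNA DLEU1, or with a nontargeting siRNA (siCtrl). RNA taken 72 h later was hybridized to 1 array for each line and siRNA, 6 arrays in all. The 3 lines are therefore the only replicates, values within 1 line carry no error, and the 2 arrays of a line serve as its replicates when lines are compared. The labels name the siRNA only by its target, and siDLEU1-2 is its name in the figure legends, so the results rest on a single siRNA sequence.

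MALAT1 is a nuclear RNA of splicing speckles, and NEAT1, its neighbor on chromosome 11, is the scaffold on which paraspeckles form. NEAT1 has a short and a long form that start at the same promoter. H19 and MEG3 come from imprinted loci and are transcribed from the maternal allele, H19 next to IGF2 and MEG3 next to DLK1. HOTAIR lies in the HOXC cluster and is known for its link to Polycomb and LSD1 complexes. TUG1 is a widely expressed lncRNA first described in the retina. GAS5, SNHG1, SNHG5, and SNHG12 host small nucleolar RNAs (snoRNAs) in their introns, and their spliced RNAs are known as targets of nonsense-mediated decay.

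Several probes are given by sequence because the results differ between them within a gene. For MALAT1, a pair of probes that rose is followed by the probe nearest to no change. H19 is shown for the widest change, and NEAT1 by a probe near the start of the locus. For HOTAIR, capitals mark the hexamer CACTTA, discussed with the siRNA below. For SNHG5, capitals mark the 33 bases that a pair of overlapping probes share. All are written 5′ to 3′ with hg19 coordinates and strand as the files give them.
MALAT1 chr11:65268619-65268678 (+): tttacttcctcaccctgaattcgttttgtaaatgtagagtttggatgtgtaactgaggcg
MALAT1 chr11:65272873-65272932 (+): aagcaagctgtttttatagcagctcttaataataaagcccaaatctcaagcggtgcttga
MALAT1 chr11:65273714-65273773 (+): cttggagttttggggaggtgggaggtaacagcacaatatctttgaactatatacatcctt
H19 chr11:2016674-2016733 (-): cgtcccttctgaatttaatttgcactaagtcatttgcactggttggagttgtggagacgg
NEAT1 chr11:65193885-65193944 (+): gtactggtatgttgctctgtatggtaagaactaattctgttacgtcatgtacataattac
HOTAIR chr12:54356557-54356616 (-): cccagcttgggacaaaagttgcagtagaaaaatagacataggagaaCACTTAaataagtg
SNHG5 chr6:86386850-86386909 (-): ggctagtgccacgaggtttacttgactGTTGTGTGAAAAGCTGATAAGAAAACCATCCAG
SNHG5 chr6:86386823-86386882 (-): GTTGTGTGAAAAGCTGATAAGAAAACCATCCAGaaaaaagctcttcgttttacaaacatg

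The labels were checked on DLEU1 itself, whose probe lies at chr13:50679272-50679331. Levels are given throughout as the log2 signal relative to the 75th percentile of the array, so a level says how bright a probe was on that array and is not set against that of another probe. The DLEU1 level went from 1.39 to -2.71 in HSC-3, from 2.16 to -1.48 in KON, and from 1.56 to -1.88 in Ca9-22, siCtrl first. It was lower by 17.1-fold, 12.4-fold, and 10.8-fold in these lines (mean log2 fold change -3.72 ± 0.34, SD, n = 3; limma adjusted p = 0.0227). Of 10 squamous epithelial markers, 9 to 10 were well above background on an array. The same held for 1 to 2 of 6 fibroblast markers, 1 to 3 of 4 endothelial markers, and 1 to 2 of the 4 leukocyte markers measured. COL1A2, COL3A1, LUM, PDGFRB, and KDR reached that mark on none of the 6 arrays. Marker signals also moved with the knockdown, given here as the processed signal of the brightest probe of each gene, summed over a list. The fibroblast sum was 163 to 230 after siCtrl and 419 to 588 after siDLEU1, ranges that do not overlap, and most of it was COL1A1, a collagen chain, at 139 to 208 and 375 to 542. The squamous sum was 117297 to 268279 after siCtrl and 98617 to 162999 after siDLEU1, lower within each line, but its genes moved in both directions. CDH1 was higher in each line (2330 to 18639 in HSC-3, 2895 to 21027 in KON, 2542 to 15975 in Ca9-22), as was EPCAM. SFN, KRT5, KRT6A, ITGA6, TP63, and DSG3 were lower in each line. KRT14 and KRT17 were lower in HSC-3 and KON and higher in Ca9-22. The endothelial sum was 60.5 to 178 and 92.8 to 399, and the leukocyte sum was 162 to 10488 and 239 to 12984. These ranges overlap, but within each line both sums were higher after siDLEU1. Most of the upper leukocyte values was CD14 in HSC-3, at 10436.5 after siCtrl and 12938.7 after siDLEU1. The part of these shifts in the changes described below was not tested.

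Of the 63 probes, 51 passed the filter for signal well above background, and did so on all 6 arrays, and 12 did not pass. These 12 were 8 of the 9 HOTAIR probes, 2 of the 4 MEG3 probes, 1 NEAT1 probe, and 1 SNHG1 probe. After DLEU1 knockdown, 4 of the 51 probes were called higher by limma (adjusted p under 0.05 over all 19956 probes kept), and all 4 were MALAT1 probes. No member was called lower. An unadjusted p under 0.05 was found for 10 of the 51 (19.6%) and for 29.5% of all probes kept. Over all probes kept, 3.98% were called higher and 4.52% lower. The median of the mean log2 fold change was 0.45 over the 51 probes and 0.0073 over all probes. The probes of a gene share their RNA, and 18 of the 51 belong to SNHG5 alone. In all 3 lines, 17 of the 51 probes (33.3%) were higher after siDLEU1-2, against 26.9% of all probes, and 2 (3.92%) were lower, against 26.7%. No member probe exceeded 2-fold in the same direction in all 3 lines, which 4.16% of all probes did. In these bulk RNAs, a change in the share of cells with a transcript and a change in its amount per cell cannot be told apart. The plot of levels by array shows the 51 probes.

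**Figure D1:**
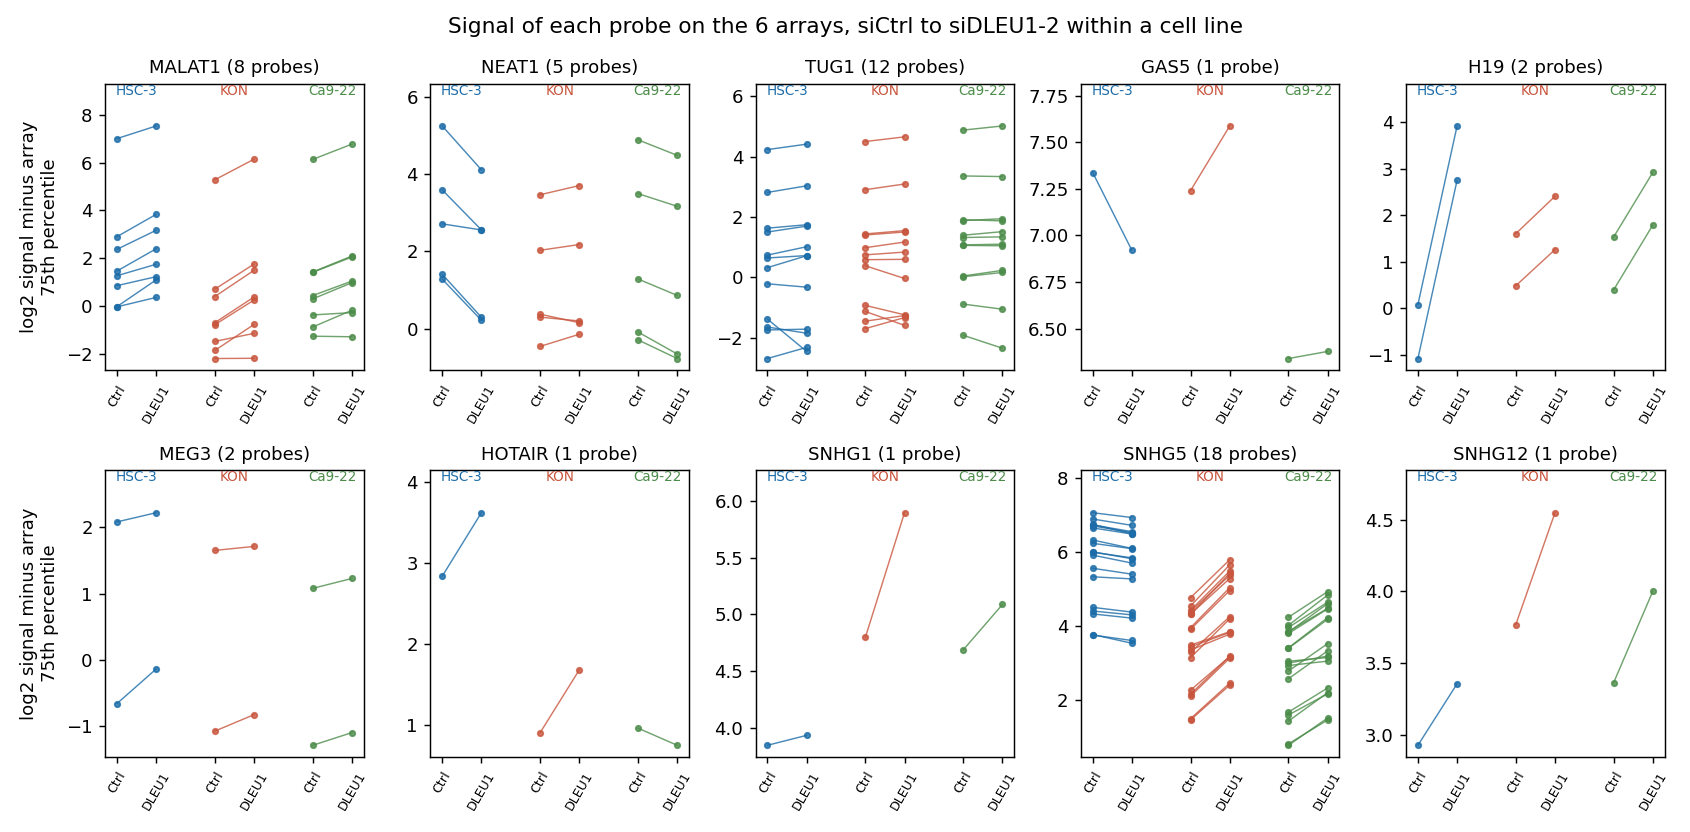
Level of each tested probe (log2 signal minus the 75th percentile of the array, vertical axis, scaled separately for each gene) on the 6 arrays. Each line joins the siCtrl array (Ctrl) and the siDLEU1-2 array (DLEU1) of 1 cell line for 1 probe. MALAT1 was brightest in HSC-3 and dimmest in KON, while the H19 lines are steepest in HSC-3, where the siCtrl level was the lowest.

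MALAT1 was measured by 8 probes along chr11:65267042-65273930, on the plus strand. Of these, 7 were higher after siDLEU1-2 in all 3 lines, as were 26.9% of all probes kept. The 4 probes that rose lay at 65268619, 65272646, 65272873, and 65273511. Levels are given below from siCtrl to siDLEU1-2 within each line. At 65268619, the level moved from 2.37 to 3.17 in HSC-3, from 0.39 to 1.49 in KON, and from 1.42 to 2.09 in Ca9-22 (mean log2 fold change 0.86 ± 0.22, SD, n = 3; limma adjusted p = 0.0460). Every line was higher after siDLEU1-2, although the levels of the siRNA groups overlapped.

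The widest mean change was at 65272873, where the level moved from -0.03 to 1.09 in HSC-3, from -1.87 to -0.78 in KON, and from -0.88 to -0.18 in Ca9-22. That is a 2.17-fold, 2.13-fold, and 1.63-fold increase (mean log2 fold change 0.97 ± 0.23, SE 0.16, limma adjusted p = 0.0379). Similar changes were found at 65272646 (0.87 ± 0.24) and 65273511 (0.88 ± 0.21), with limma adjusted p of 0.0463 and 0.0430. KON showed the widest change of the lines at 3 of these 4 probes, and Ca9-22 the smallest at all 4.

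The other 4 MALAT1 probes did not pass the threshold. The 5′-most probe, at 65267042, was bright on every array (levels moved from 7.01 to 7.54 in HSC-3, from 5.29 to 6.15 in KON, from 6.14 to 6.78 in Ca9-22), and the mean log2 fold change was 0.68 ± 0.17 (limma adjusted p = 0.0596). The 3′-most probe, at 65273871, gave 0.73 ± 0.28 (limma adjusted p = 0.0676). Between it and the called probe at 65273511 lay a pair of probes with smaller values. The probe at 65273714 gave log2 fold changes of 0.39 for HSC-3, 0.01 for KON, and -0.02 for Ca9-22, and the one at 65273811 of 0.37, 0.34, and 0.10. Their limma adjusted p were 0.635 and 0.283. The probe at 65273871 starts at the base after the one at 65273811 ends, and these neighbors gave means of 0.73 and 0.27. With the 8 probes averaged, the mean of MALAT1 was 0.67 on the log2 scale and was not called (limma adjusted p = 0.0586). Leaving out any 1 line ended the 4 calls (limma adjusted p from 0.0835 to 0.150, means from 0.73 to 1.10), but with 2 lines left, 0 of all 19956 probes were called without HSC-3 or KON and 244 without Ca9-22. Testing without the filter on dim probes left no probe called on the whole array (limma adjusted p from 0.172 to 0.195 for these 4).

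**Figure D2:**
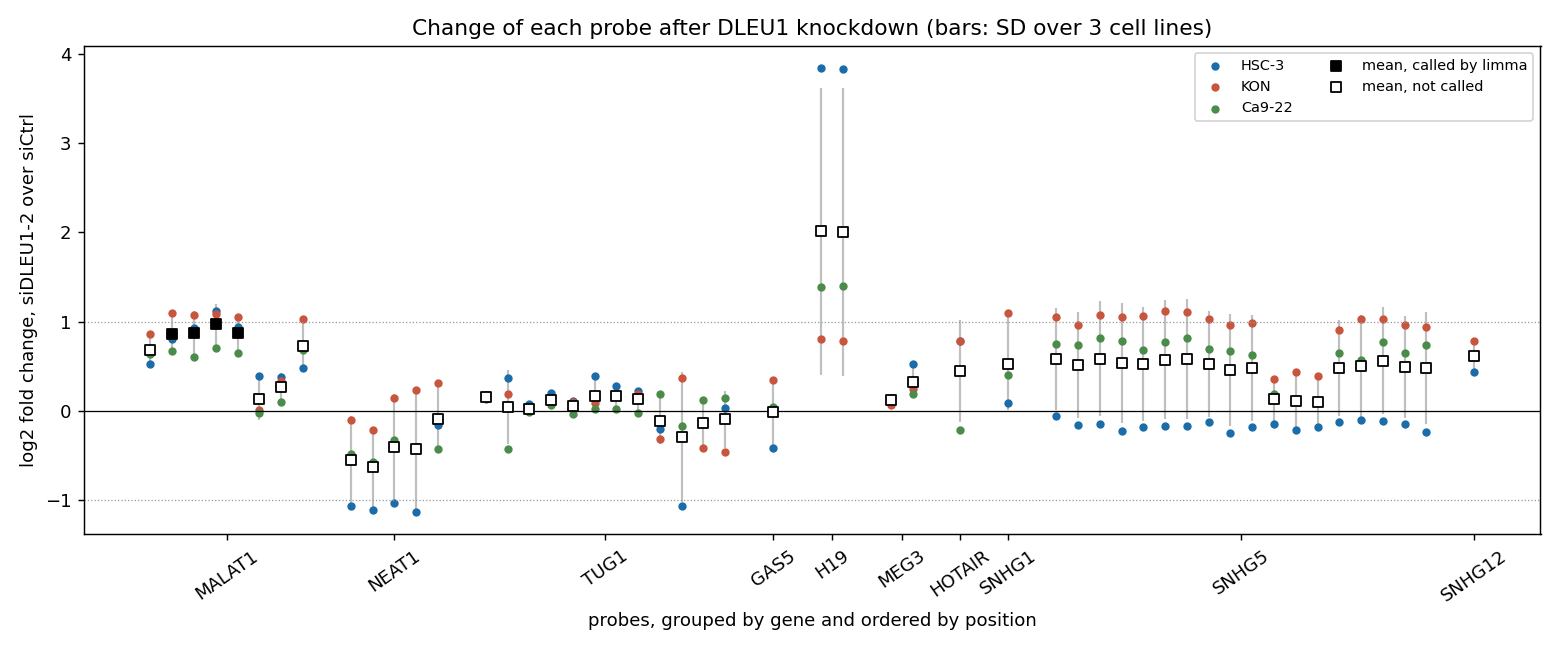
Log2 fold change of siDLEU1-2 over siCtrl (vertical axis) for the 51 tested probes, grouped by gene. Colored points are the 3 cell lines, squares their mean, gray bars the SD (n = 3), filled squares the probes called by limma, and dotted lines mark a 2-fold change; the 4 filled squares are MALAT1, and the bars of H19 are the longest.

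NEAT1 was measured by 6 probes on the plus strand of chromosome 11, and 5 were tested, none of which was called (limma adjusted p from 0.137 to 0.798; 1 probe had an unadjusted p under 0.05). The 4 probes near the start of the locus, at chr11:65192168-65193944, were lower after siDLEU1-2 in HSC-3 and in Ca9-22, and in KON they lay on both sides of 0. At 65193885, the level went from 5.25 to 4.11 in HSC-3, from 3.47 to 3.70 in KON, and from 4.89 to 4.49 in Ca9-22. HSC-3 thus showed a 2.20-fold lower signal, Ca9-22 a smaller difference in the same direction, and KON one in the opposite direction (mean log2 fold change -0.43 ± 0.69). Over these 4 probes, the log2 fold change lay between -1.14 and -1.04 in HSC-3, between -0.57 and -0.33 in Ca9-22, and between -0.22 and 0.24 in KON. The probe not tested, at 65194123, was well above background on 4 of 6 arrays.

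H19 gave the widest differences of the 10 genes, from a pair of probes on the minus strand of chromosome 11. At 2016674-2016733, the level went from 0.08 to 3.92 in HSC-3, from 1.60 to 2.41 in KON, and from 1.53 to 2.92 in Ca9-22. The HSC-3 cells had the lowest H19 signal of all arrays after siCtrl and the highest after siDLEU1-2, a 14.3-fold difference, against 1.75-fold in KON and 2.62-fold in Ca9-22. The probe at 2016961-2017020 gave 14.3-fold, 1.71-fold, and 2.63-fold. Neither probe was called (mean log2 fold change 2.01 ± 1.61 and 2.001 ± 1.62, limma adjusted p = 0.116 and 0.118). Without HSC-3, the means were 1.10 and 1.09. Both probes were higher after siDLEU1-2 in all 3 lines, as were 26.9% of all probes kept. The levels of the siRNA groups did not overlap at either probe, and the share of all probes without such overlap was not counted. IGF2, the growth factor gene beside H19, by its probe at chr11:2150394-2150453, went from -5.81 to -3.21 in HSC-3, from 4.53 to 5.27 in KON, and from -2.41 to 0.65 in Ca9-22, where the HSC-3 siCtrl value was not well above background (limma adjusted p = 0.0650).

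MEG3 differed little between the siRNAs. Its probe at chr14:101295974-101296033 went from 2.08 to 2.22 in HSC-3, from 1.65 to 1.71 in KON, and from 1.08 to 1.23 in Ca9-22 (mean log2 fold change 0.12 ± 0.05, limma adjusted p = 0.605). The probe at 101325072-101325131 gave 0.32 ± 0.18 (limma adjusted p = 0.230). Both were higher in every line, as were 26.9% of all probes kept. The other MEG3 probes were well above background on 0 and 1 of the 6 arrays.

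HOTAIR was detected on all arrays by 1 of its 9 probes, at chr12:54356096-54356155 on the minus strand. Its level went from 2.84 to 3.62 in HSC-3, from 0.90 to 1.68 in KON, and from 0.96 to 0.74 in Ca9-22 (mean log2 fold change 0.45 ± 0.57, limma adjusted p = 0.308). HSC-3 and KON were higher after siDLEU1-2 and Ca9-22 was lower. The other 8 probes were well above background on 0 to 4 of 6 arrays, so the comparisons of HOTAIR rest on a single probe.

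TUG1 also differed little. Its 12 probes along chr22:31371927-31375336 had mean log2 fold changes from -0.29 to 0.17, and none was called (limma adjusted p from 0.478 to 0.922; no unadjusted p was under 0.05). At 31371927, the level went from 4.23 to 4.41 in HSC-3, from 4.50 to 4.66 in KON, and from 4.88 to 5.02 in Ca9-22 (mean 0.16 ± 0.02). The probe at 31374937 was the widest in spread, with -1.07 for HSC-3, 0.36 for KON, and -0.17 for Ca9-22, while the probe that overlaps it, at 31374898, gave -0.20, -0.31, and 0.19.

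None of the snoRNA hosts was called after DLEU1 knockdown. SNHG12, at chr1:28905179-28906090, was the nearest to the threshold, and its level went from 2.92 to 3.35 in HSC-3, from 3.77 to 4.55 in KON, and from 3.363 to 4.001 in Ca9-22 (mean log2 fold change 0.62 ± 0.18, limma adjusted p = 0.0719). It was higher in all 3 lines, as were 26.9% of all probes kept, and with normexp background correction it passed (limma adjusted p = 0.0468). SNHG1, at chr11:62619573-62619632, went from 3.84 to 3.93 in HSC-3, from 4.80 to 5.90 in KON, and from 4.69 to 5.09 in Ca9-22 (0.53 ± 0.52, limma adjusted p = 0.220), so KON carried most of its difference. GAS5, at chr1:173833049-173833108, went from 7.34 to 6.92 in HSC-3, from 7.24 to 7.59 in KON, and from 6.34 to 6.38 in Ca9-22, which averaged to -0.01 ± 0.38 (limma adjusted p = 0.979).

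SNHG5 was covered by 18 probes, many of which overlap, in 3 stretches of chr6:86386823-86387747. At 86386850-86386909, the level went from 6.89 to 6.72 in HSC-3, from 4.54 to 5.65 in KON, and from 4.02 to 4.84 in Ca9-22. KON and Ca9-22 were higher after siDLEU1-2 and HSC-3 was slightly lower, and this held for all 18 probes. In the stretch at 86386823-86387201, 10 probes had log2 fold changes from -0.25 to -0.06 in HSC-3, from 0.96 to 1.11 in KON, and from 0.63 to 0.82 in Ca9-22. The 5 probes at 86387675-86387747 gave -0.23 to -0.11, 0.91 to 1.03, and 0.57 to 0.77. The 3 probes in between, at 86387513-86387577, differed less, with -0.21 to -0.15, 0.36 to 0.43, and 0.10 to 0.19. The limma adjusted p of the 18 probes lay between 0.212 and 0.732.

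**Figure D3:**
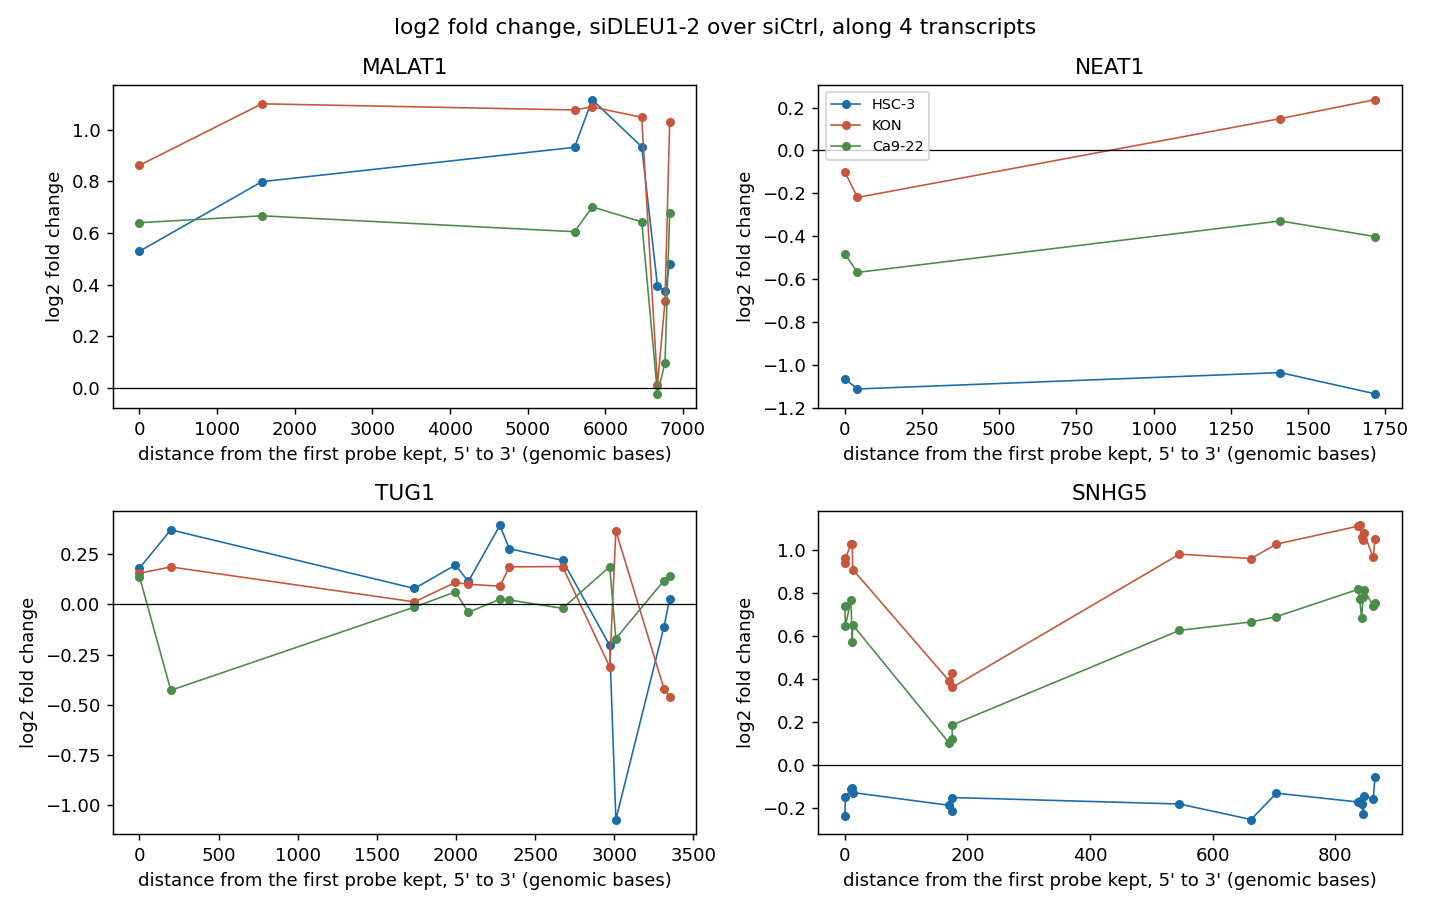
Log2 fold change of siDLEU1-2 over siCtrl (vertical axis) in each line against the distance in genomic bases from the 5′-most tested probe of MALAT1, NEAT1 (4 probes), TUG1, and SNHG5. MALAT1 gave smaller values at a pair of probes near the 3′ end, NEAT1 was lowest in HSC-3, and SNHG5 gave smaller values at 3 probes in KON and Ca9-22.

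Levels were then compared between the cell lines. By limma, 39 of the 51 probes (76.5%) differed between the 3 lines, against 53.8% of all probes kept, and 18 of the 39 were SNHG5 probes. With the siRNA left out of the fit, 26 of the 51 (51.0%) differed, against 25.2% of all probes. Without the HSC-3 arrays, 10 of the 51 (19.6%) differed between KON and Ca9-22, against 27.6% of all probes in that fit. With all 6 arrays, 36.2% of all probes were called between KON and HSC-3, between Ca9-22 and HSC-3 36.6%, and between Ca9-22 and KON 33.2%. These contrasts use both siRNA arrays of each line, so differences between lines in the response to the siRNA count as error.

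All 8 MALAT1 probes differed between the lines, in the order HSC-3, Ca9-22, KON (limma adjusted p from 0.0062 to 0.0096). The log2 difference of KON from HSC-3 was -2.36 to -1.56 and that of Ca9-22 from HSC-3 was -1.64 to -0.82, each called at all 8 probes. Ca9-22 lay above KON by 0.50 to 0.99, called at 7 of 8. SNHG5 was also highest in HSC-3, with all 18 probes called (limma adjusted p from 0.0056 to 0.0141). The log2 difference from HSC-3 was -2.28 to -1.63 for KON and -2.82 to -2.33 for Ca9-22, whereas Ca9-22 and KON were not called apart at any of the 18 probes. At its tested probe, HOTAIR was highest in HSC-3 too, with log2 differences of -1.94 for KON and -2.38 for Ca9-22 (limma adjusted p = 0.0141 and 0.0095), and KON and Ca9-22 not called apart (limma adjusted p = 0.319). Its probe at 54356419, not tested because neither KON array was well above background, ran the other way between HSC-3 and Ca9-22. There the level went from -2.73 to -2.58 in HSC-3 and from -1.33 to -2.22 in Ca9-22. At 54356620, also not tested, the levels after siCtrl were -3.06 for HSC-3 and -1.82 for Ca9-22, and after siDLEU1 -3.04 and -3.11. At 54350159 and 54361115, where neither Ca9-22 array was well above background, HSC-3 lay above Ca9-22 with either siRNA. The levels after siCtrl were -3.06 and -3.35 at the first and -2.92 and -3.71 at the second, HSC-3 before Ca9-22. At the other 4 untested HOTAIR probes, at most 1 of the 6 arrays was well above background.

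The order of the lines for NEAT1 was not the same at each probe, and 3 of its 5 probes differed between the lines. At 65192209, the log2 difference from HSC-3 was -1.22 for Ca9-22 (limma adjusted p = 0.0267) and -0.59 for KON (limma adjusted p = 0.142). At 65193885, it was 0.01 for Ca9-22 (limma adjusted p = 0.988) and -1.09 for KON (limma adjusted p = 0.0705).

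TUG1 differed between the lines at 4 of 12 probes. In 3 of these, at 31374898, 31375241, and 31375277, near the 3′ end of the stretch covered, Ca9-22 was higher than HSC-3 by 1.89, 1.73, and 1.82 on the log2 scale (limma adjusted p from 0.0070 to 0.0083). The 6 probes from 31373664 to 31374600 differed between Ca9-22 and HSC-3 by 0.20 to 0.57, with none called. The remaining called probe, at 31372125, was higher in KON than in HSC-3 by 1.15. Between single lines, the probe at 31371927 was also called, higher in Ca9-22 than in HSC-3 by 0.62 (limma adjusted p = 0.0404). SNHG1 and SNHG12 were highest in KON (1.46 and 1.02 above HSC-3, limma adjusted p = 0.0218 and 0.0173), without being called apart from Ca9-22 (limma adjusted p = 0.269 and 0.104). GAS5 was lower in Ca9-22 than in KON, with a log2 difference of -1.06 (limma adjusted p = 0.0318). MEG3 was lower in Ca9-22 than in HSC-3, with log2 differences of -0.998 and -0.795 at its probes (limma adjusted p = 0.0142 and 0.0300). H19 was not called between the lines (limma adjusted p = 0.941 and 0.948).

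**Figure D4:**
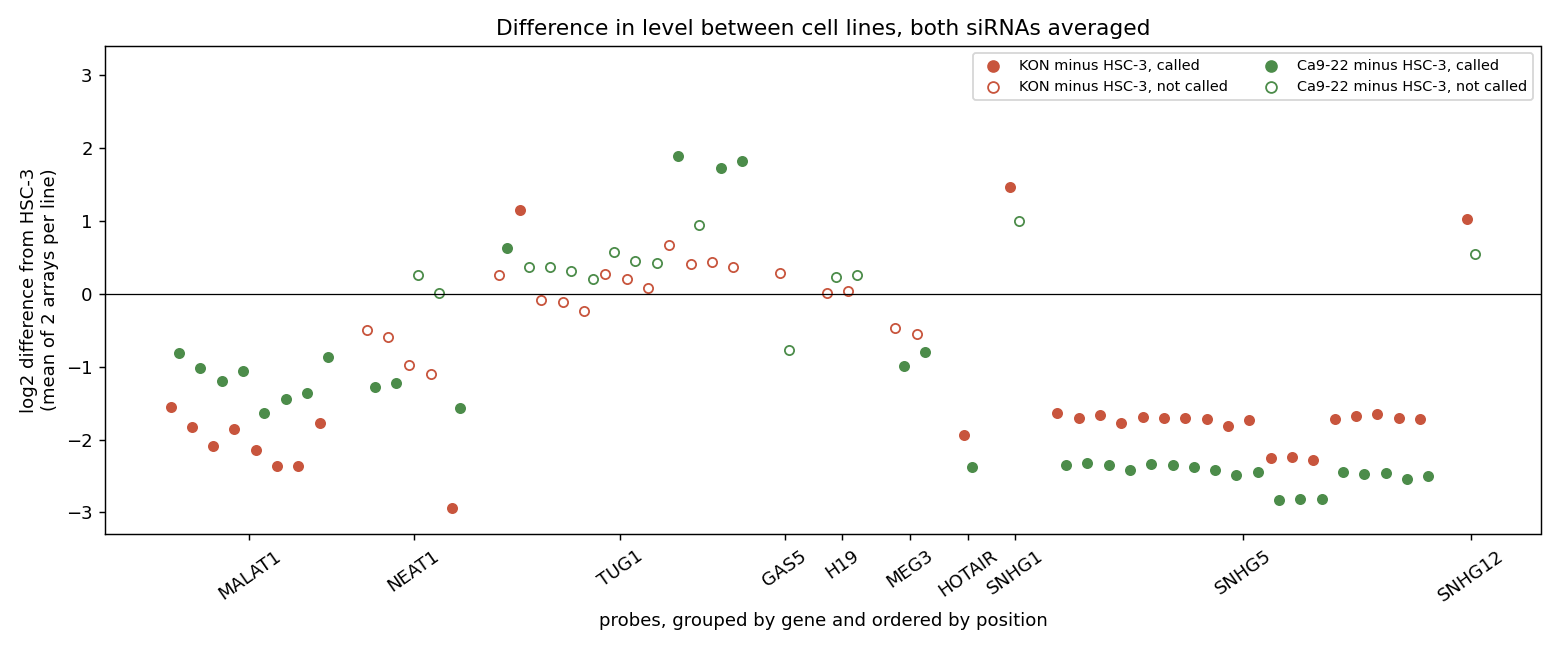
Log2 difference of KON and of Ca9-22 from HSC-3 (vertical axis, both siRNA arrays of a line averaged) for the 51 tested probes, grouped by gene. Filled points were called by limma; the MALAT1, SNHG5, HOTAIR, and MEG3 probes lie below 0 in both lines, and 9 of 12 TUG1 probes, SNHG1, and SNHG12 lie above 0 in both.

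Genes of the pathways around these lncRNAs were mostly not called after DLEU1 knockdown, and the counts below stand against 3.98% higher and 4.52% lower over all probes kept. A gene was counted where any of its kept probes passed, whereas the shares are per probe, so the units differ. None of 18 paraspeckle protein genes and none of 16 genes for nuclear speckle and SR splicing factors was called by limma, with 4 and 1 genes at an unadjusted p under 0.05 (29.5% of all probes kept) and medians over their probes of -0.02 and 0.08 for the log2 fold change. Of 14 nonsense-mediated decay factors, 4 had an unadjusted p under 0.05. RBM8A, a subunit of the exon junction complex, rose at 1 of its 2 probes. That probe moved from 0.86 to 2.08 in HSC-3, from 0.57 to 1.98 in KON, and from 0.59 to 2.83 in Ca9-22 (mean log2 fold change 1.63 ± 0.54, limma adjusted p = 0.0330), while the other gave 0.83 ± 0.35 (limma adjusted p = 0.0638). Of 13 Polycomb and LSD1 complex genes, 5 had an unadjusted p under 0.05, and SUZ12, a core subunit of Polycomb repressive complex 2, fell from 3.68 to 2.85 in HSC-3, from 2.86 to 2.19 in KON, and from 3.25 to 2.32 in Ca9-22 (-0.81 ± 0.14, limma adjusted p = 0.0421). Among 8 other snoRNA hosts tested and 11 gene neighbors and imprinted partners, none was called by limma, with 1 and 3 genes at an unadjusted p under 0.05. Over the 1241 other probes with a noncoding RefSeq record, 3.22% were called higher and 3.55% lower.

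The probes were searched for the heptamer GCACTTA, which is complementary to the seed of the siDLEU1-2 antisense strand, in the letters of each probe as given. None of the 63 probes held it, against 0.286% of all probes kept. The hexamer CACTTA within it was in 1 of the 63, the HOTAIR probe at 54356557 shown above, which did not pass the filter. It was in 0 of the 51 member probes kept and in 1.23% of all probes kept. A probe covers only 60 bases of a transcript, so the rest of each RNA was not searched.

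Genes were also ranked by how closely their profile over the 6 arrays followed that of a lncRNA, as the root mean square difference of log2 levels after centering each profile. For the probe of MALAT1 at 65267042, the nearest gene symbol was MTCP1NB (0.079), for GAS5 SH3BP1 (0.073), and for SNHG12 ALG2 (0.063). The nearest to HOTAIR was IL18RAP (0.095), to SNHG1 UBXN8 (0.089), and to the MEG3 probe at 101295974 NENF (0.036). For the H19 probe at 2016674, whose profile spans a wider range, the nearest were GLIS1 (0.25) and SHROOM3 (0.26), and these differences are not scaled by the range. These are descriptions over 6 arrays that share lines and siRNAs.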

How the data were processed

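Total RNA (100 ng) of 6 samples was labeled with Cy3 and hybridized to Agilent SurePrint arrays, all on 1 slide. The authors deposited the output of Feature Extraction 10.7, in which the processed signal is a background-subtracted intensity, and a series table of the same intensity, rounded. The normalization used in the study is not given in the sources used here.

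Control and outlier spots were left out, and the log2 of the deposited intensity was set relative to the array's 75th percentile. A probe was kept (19956 of 50599) if in each line an array showed it well above background, which 43.0% to 45.7% of probes were per array. limma 3.58.1 (R 4.3.3, lmFit and eBayes, also run on simulated data) had siRNA and cell line as terms, and p-values were Benjamini-Hochberg adjusted over all kept probes. The line is the block because it supplied both members of a pair, whose deviations correlated at 0.83 (HSC-3), 0.81 (KON), and 0.82 (Ca9-22). The number of arrays limits the precision, and separate cultures are not stated. Members and lists were chosen with earlier results of these data known. All probes of the 10 genes are counted, and called genes of the lists and the nearest profiles are named; 1 NEAT1 probe is not reported here on its own. Alternatives covered normalization, background correction, filters, thresholds, and design. Coordinates are the files' own (hg19), and exons or introns are not given.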

Additional observations from a re-analysis of the deposited data

Results flagged for a closer look

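Some genes were higher after siDLEU1-2 in some lines and lower in others, and this difference between lines was not tested, because a line and siRNA had a single array. SNHG5 had median log2 fold changes over its 18 probes of -0.16 for HSC-3, 1.003 for KON, and 0.69 for Ca9-22. HOTAIR, by its single tested probe, gave 0.79 for HSC-3, 0.78 for KON, and -0.21 for Ca9-22. NEAT1 had medians over its 5 tested probes of -1.07 for HSC-3, 0.15 for KON, and -0.42 for Ca9-22, with its KON values on both sides of 0. GAS5, by 1 probe, gave -0.42 for HSC-3, 0.35 for KON, and 0.0381 for Ca9-22.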

How the results depend on the processing

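The 4 MALAT1 calls were kept under quantile normalization, the percentile over detected probes, the authors' series table, the detection floor, and a filter on all 6 arrays (5 calls), and 3 were kept with median centering (65272646 had a limma adjusted p of 0.0517). Normexp background correction gave 7 member calls and 5 called genes of the related lists instead of 2, while calls over all probes went from 1697 to 2308. Without a filter on dim probes no member was called by limma (9 at an unadjusted p under 0.05), and none of all 50544 probes tested (6816 unadjusted). In that fit, 32 members (50.8%) differed between lines, against 16.3% of all probes. With the filter it was 39 members (76.5%), against 53.8% of all probes. Without the cell line as a replicate block, 0 members (2 unadjusted), 0 list genes, and 0 of all 19956 probes (1357 unadjusted) were called. The methods' t-test gave 0 member calls after adjustment (2 unadjusted) and 0 over all probes (1373 unadjusted), and the mean of all kept probes of a gene 0 of 10 genes (3 unadjusted). Leaving out a line left 0 to 0 limma calls of members (25, 12, and 10 unadjusted without HSC-3, KON, and Ca9-22), and over all probes 0, 0, and 244 (4547, 4676, and 4395 unadjusted). Without HSC-3, KON, and Ca9-22, in this order, 10, 35, and 31 member probes differed between lines instead of 39. These were 19.6%, 68.6%, and 60.8% of the members, against 27.6%, 30.8%, and 29.8% of all probes. With a line left out, 0 to 2 member probes were over 2-fold in the remaining lines, and the share of all probes was not counted. At a 1.5-fold threshold, 6 member probes passed in all lines, and the share of all probes at that threshold was not counted. Single lines also moved means that were not called: GAS5 ran from -0.19 without KON to 0.19 without HSC-3, H19 (2016674) from 1.10 without HSC-3 to 2.61 without KON, and SNHG1 from 0.24 without KON to 0.75 without HSC-3. The HOTAIR mean ran from 0.28 without HSC-3 to 0.78 without Ca9-22. Medians over probes ran from 0.26 without KON to 0.85 without HSC-3 for SNHG5 and from -0.77 without KON to -0.09 without HSC-3 for NEAT1. The TUG1 median of 0.05 was 0.13 without Ca9-22 and -0.02 with median centering. The cause of these shifts was not tested. Of the values of single probes and genes under the alternatives, 167 kept their direction and side of the threshold or moved by less than 1 SD. A call was lost by 25 (all MALAT1 probes) and gained by 1 (SNHG12 with normexp). The TUG1 median moved by more than 1 SD in 2, and the GAS5 mean changed sign in 1 (without HSC-3).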
